A study of Mus musculus with 4 samples.

Results

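The proteins of the mitochondrial ribosome are encoded by nuclear genes. This ribosome makes the few membrane proteins of the respiratory chain that mitochondrial DNA still encodes. The protein genes of this ribosome were taken as all gene symbols that start with Mrpl or Mrps followed by a number and at most 1 further letter. The rule found 77 genes among the 25796 gene symbols of the deposited table, and each gene was represented by its transcript with the highest mean over the 4 libraries. These 77 genes held 171 listed transcripts, 39 genes had 1 transcript, and Mrpl55 had the most with 10. Of the 77, 50 encode proteins of the large subunit, 26 encode proteins of the small subunit, and Mrps36, despite its name, encodes a protein that is now placed outside the ribosome.

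The RNA came from epithelial cells released from the colons of mice by incubation in a buffer with a chelating agent, followed by total RNA extraction. There were 2 libraries labelled WT and 2 labelled Ythdf1 KO, all of them inputs of an immunoprecipitation experiment for N6-methyladenosine, which means RNA that had not been enriched with the antibody. Ythdf1 is a cytoplasmic protein that binds this base modification in mRNA. Comparing the labelled groups asks how RNA levels in colon epithelium labelled as lacking Ythdf1 compared with those in WT epithelium. No age, sex, strain or knockout allele is given in the labels. Nor do they say if 1 mouse or several gave the libraries of a label, so the p-values reflect the spread of these libraries, and that spread may be technical.

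Mitochondrial ribosomes descend from those of bacteria, so that many of their proteins have a bacterial counterpart and others were added later in mitochondria. All their proteins are translated in the cytosol and imported. In intestinal epithelium, dividing crypt cells and absorptive surface cells both depend on mitochondrial respiration, and this ribosome supplies the mitochondrially encoded subunits for it.

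Values are normalised read counts, that is, reads on a transcript divided by 1 size factor per library. The libraries held 21686140 to 30951138 reads on the chosen transcripts of all genes. The epithelial marker Epcam stood at 29956 to 33789.8 normalised counts per library, and all 12 epithelial markers were listed. Of the 12, 2 (16.7%) stood above and 3 (25%) below both WT libraries, against 14.3% and 21.4% of all genes tested. Those above were Epcam and Krt18, and 8 of the 12 had a positive log2 difference. Those below were Car1, Cdx2 and Krt20. Car1, a carbonic anhydrase of surface colonocytes, had 102727 and 116128 normalised counts in WT against 73552 and 42374. Cdx2 stood at 0.779 times the WT mean and Krt20 at 0.912 times. The part of these markers in the results was not tested. Summed levels of 10 leukocyte markers were 1555 and 1209.5 under the WT label and 967 and 657 under the Ythdf1 KO label. Of the 10, 0 stood above and 3 (30%) below both WT libraries, against 14.3% and 21.4% of all genes tested. A negative log2 difference was seen in 9 of them. The macrophage gene Lyz2 had 47.3 and 73.7 normalised counts in WT and 0 in both libraries labelled Ythdf1 KO. Cd68 and Csf1r, also of macrophages, overlapped between the groups. The sums of 11 markers of stroma, muscle and vessels were 1772 and 3836 against 1849 and 1577, and those of 6 genes of cycling cells were 9909 and 12574 against 13977 and 16196. Mki67 alone gave 6489 and 8244 against 9025 and 11002 of the cycling sums. Of these 6 genes, 5 had a positive log2 difference, and Pcna went the other way at 0.777 times the WT mean. Ythdf1 itself did not stand lower in the libraries labelled as its knockout: it had 1088 and 775 normalised counts in WT 1 and WT 2 and 1752 and 1737 in Ythdf1 KO 1 and Ythdf1 KO 2, a log2 difference of 0.92 ± 0.28 (SE, n = 2 per group; limma-trend adjusted p 0.759). Its q in the authors' deposited table was 0.0145, and DESeq2 on recovered reads gave an adjusted p of 0.011. The labels do not say which part of the gene was altered, and these whole-transcript counts do not test for a short deletion, so the groups are called here by their labels.

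No mitochondrial ribosomal protein gene passed the test between the labelled groups. Of the 77 genes, 0 had a Benjamini-Hochberg adjusted p under 0.05 with limma-trend on log2(value + 1), where p-values were adjusted over all 23116 genes tested, and the lowest adjusted p among them was 0.759. The background in that fit was 0% of all genes. At an unadjusted p under 0.05, 1 member was higher in the libraries labelled Ythdf1 KO (Mrpl38) and 0 were lower, against 5.44% of all genes, made up of 1.92% higher and 3.52% lower. All 77 members passed the filter on low values, which kept genes that reached 1 normalised count in 2 or more libraries.

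Other tools gave the same count of 0 members at an adjusted p under 0.05. DESeq2 on reads recovered from the values called 6.49% of all genes tested, limma without a trend 2.73% and edgeR 0%, and none of these calls was a member. At an unadjusted p under 0.05 DESeq2 found 6 members (Mrpl15, Mrpl36, Mrpl37, Mrpl38, Mrps6 and Mrps7) against 17.1% of all genes, edgeR found 1 (Mrpl38) against 4.66%, and limma without a trend found 0 against 9.11%.

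The summed level of the 77 genes overlapped between the labels. It was 41903 and 44169 normalised counts in WT 1 and WT 2, and 42405 and 47649.8 in Ythdf1 KO 1 and Ythdf1 KO 2. The groups overlapped, with Ythdf1 KO 1 between the 2 WT libraries. The WT mean was 43036 ± 1602 (SD, n = 2) and the mean under the Ythdf1 KO label 45027 ± 3709 (SD, n = 2), 1.05 times as high. An exact two-sided permutation test gave p = 0.667, and with 2 against 2 libraries such a test cannot go below 1 in 3. These sums were 0.171%, 0.178%, 0.169% and 0.186% of the normalised counts of all genes, in the same order. A change in the mix of cells and a change in RNA per cell cannot be told apart in such bulk samples.

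The members' log2 differences, Ythdf1 KO minus WT, had a median of 0.03, with quartiles of −0.26 and 0.40. The median over all genes tested was −0.087 and that over the 10807 genes in the same range of mean counts was −0.027. Of the members 42 lay above 0 and 35 below, 52 lay within 0.5 of 0, and 71 lay within 1, which is a doubling or halving. Leaving out 1 library at a time gave medians from −0.078 to 0.14, the highest without Ythdf1 KO 1 and the lowest without Ythdf1 KO 2. Both libraries labelled Ythdf1 KO stood above both WT libraries for 15 members (19.5%), against a background of 14.3% of all genes tested and 16.3% of those in the same range of means. Both stood below for 13 members (16.9%), against 21.4% and 18.3%. For the other 49 members the libraries of the groups overlapped.

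**Figure D1:**
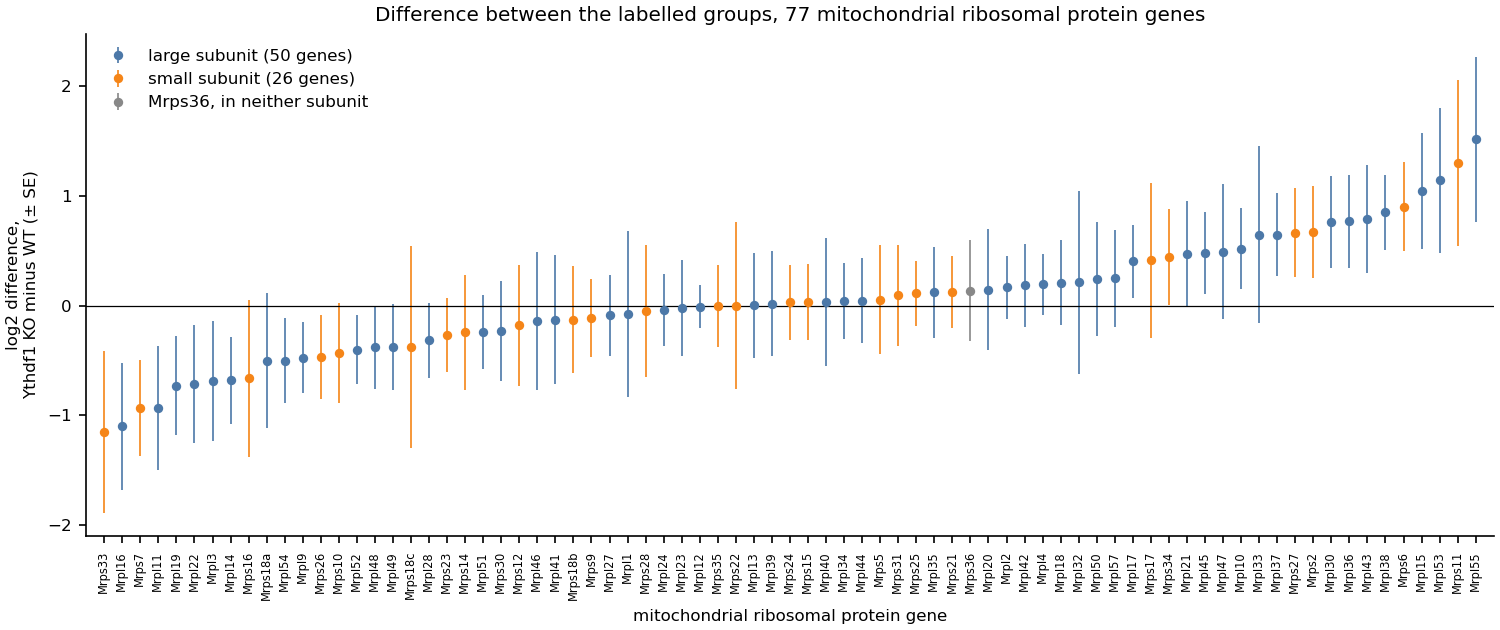
Log2 difference of group means (y axis, Ythdf1 KO minus WT, on the log2(value + 1) scale) of each of the 77 mitochondrial ribosomal protein genes (x axis), ordered by difference; points are estimates, bars are ± 1 standard error from limma-trend with 2 libraries per group, and colour gives the subunit. The points run from −1.15 (Mrps33) to 1.52 (Mrpl55), with genes of both subunits spread over the whole order.

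By subunit, the medians again lay near 0. The 50 large subunit genes had a median log2 difference of 0.04, with 10 genes above (20%) and 11 below (22.0%) both WT libraries, against 14.3% and 21.4% of all genes tested. The 26 small subunit genes had a median of −0.001, with 4 above (15.4%) and 2 below (7.69%). By descent, the 46 genes whose proteins have a bacterial counterpart had a median of 0.03 and the 30 genes of mitochondria-specific proteins one of 0.009. For comparison, the median was 0.20 over 76 cytosolic ribosomal protein genes, of which 29 (38.2%) stood above and 2 (2.63%) below both WT libraries, and −0.002 over 75 nuclear genes of the respiratory chain, with 10 above (13.3%) and 8 below (10.7%). In Ythdf1 KO 2 alone, 59 of the 76 cytosolic genes had their highest level, whereas the mitochondrial ones were highest there in 27 cases, in WT 2 in 20, in WT 1 in 17 and in Ythdf1 KO 1 in 13. None of these lists held a gene with a limma-trend adjusted p under 0.05, and the differences between the lists were not tested.

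**Figure D2:**
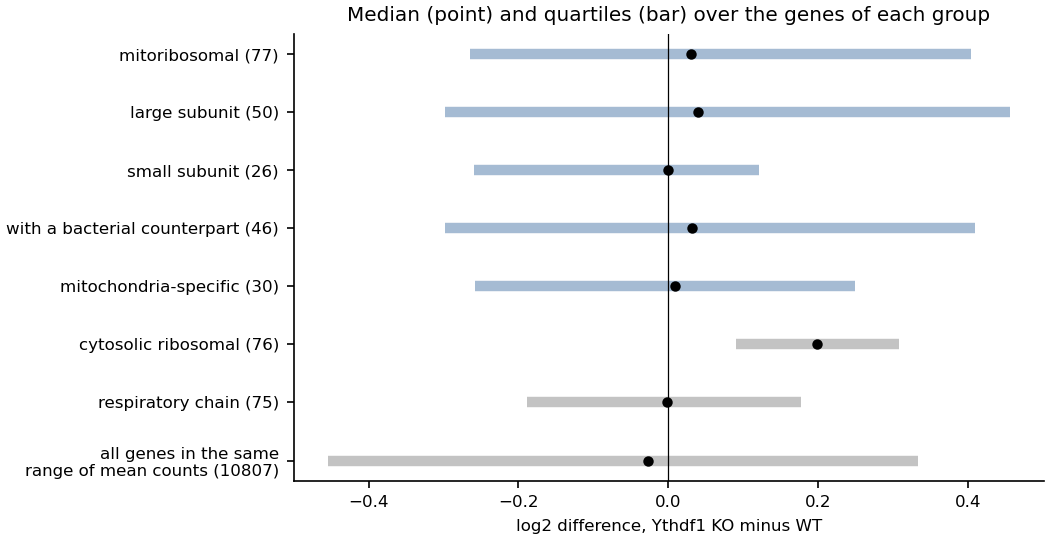
Median (points) and quartiles (bars) of the log2 difference (x axis, Ythdf1 KO minus WT, log2(value + 1) scale) over the genes of each group (y axis, number of genes in parentheses). The median of the 77 mitochondrial ribosomal genes is 0.03 and that of the 76 cytosolic ribosomal genes 0.20; bars show the spread among genes, not an error of the median.

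The large subunit carries a flexible stalk that recruits the translation factors with GTPase activity. Mrpl12, which forms the stalk and is also known to bind the mitochondrial RNA polymerase, had the highest read counts of the 77 genes: 2397 and 2431 normalised counts in WT 1 and WT 2, and 2271 and 2535 in Ythdf1 KO 1 and Ythdf1 KO 2. The 4 libraries lay close together and the groups overlapped. Its log2 difference was −0.01 ± 0.20 (SE, n = 2 per group), with the smallest standard error of all members and a 95% confidence interval from −0.48 to 0.47. Mrpl10 anchors the stalk to the ribosome and had 514 and 862 normalised counts in WT against 1018 and 897, both above WT, with a log2 difference of 0.52 ± 0.37. Mrpl11, at the base of the stalk, went the other way with 608 and 341 in WT against 326 and 174, a log2 difference of −0.93 ± 0.57. The libraries of both genes did not overlap between groups, but WT 1 and WT 2 differed by 0.75 and −0.83 on the log2 scale, which is more than the difference between the groups for Mrpl10 and somewhat less for Mrpl11.

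The nascent chain leaves the large subunit through a tunnel whose exit is lined by Mrpl17, Mrpl22, Mrpl23, Mrpl24, Mrpl45 and Mrpl47. Mrpl45 faces the inner membrane, into which the products are inserted. Mrpl17 had 564 and 682.5 normalised counts in WT against 739 and 912, Mrpl45 had 414 and 478 against 667 and 577, and Mrpl47 had 172 and 145 against 186 and 267. These 3 genes were above both WT libraries, with log2 differences of 0.40 ± 0.33, 0.48 ± 0.37 and 0.49 ± 0.62 (SE, n = 2 per group). Mrpl22 stood below, with 494 and 276 against 213 and 237, a log2 difference of −0.71 ± 0.54. Mrpl23 and Mrpl24 overlapped between the groups, with log2 differences of −0.02 and −0.04. Of these 6 genes 50% thus stood above and 16.7% below both WT libraries, against 14.3% and 21.4% of all genes tested. Shares of 6 genes rest on few genes, and they were not tested.

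The central protuberance of the large subunit contacts the small subunit and, in mitochondria, is formed mostly of added proteins. It holds Mrpl38, whose fold resembles phosphatidylethanolamine-binding proteins and which had the smallest p of all 77 genes. Mrpl38 had 695 and 482 normalised counts in WT 1 and WT 2, and 1159 and 940.5 in Ythdf1 KO 1 and Ythdf1 KO 2. Both libraries labelled Ythdf1 KO stood above both WT libraries, with a ratio of means of 1.78. Its log2 difference was 0.85 ± 0.34 (SE, n = 2 per group), and with limma-trend the unadjusted p was 0.047 and the adjusted p 0.759. Its 95% confidence interval, from 0.01 to 1.69, was the only one of the 77 that did not include 0.

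The other genes grouped here under the protuberance, a list that may not be complete, lay nearer to 0. Mrpl18 had a log2 difference of 0.21, Mrpl27 of −0.09, Mrpl40 of 0.03 and Mrpl46 of −0.14, and all 4 overlapped between groups. Mrpl48 stood below both WT libraries, with 622 and 519.9 normalised counts in WT against 419.8 and 455, a log2 difference of −0.38 ± 0.38.

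Further large subunit genes with a bacterial counterpart stood at both ends of the order. Mrpl55 had 83.4 and 309 normalised counts in WT 1 and WT 2 against 589 and 362 in Ythdf1 KO 1 and Ythdf1 KO 2. The groups did not overlap, yet the WT libraries differed from each other by 1.88 on the log2 scale, more than the log2 difference of 1.52 ± 0.75 between the groups. Mrpl15 had 287 and 509 in WT against 535 and 1169.6, a log2 difference of 1.05 ± 0.53, and Ythdf1 KO 2 alone stood far above the rest. Mrpl36, a very small zinc-binding protein, had 283 and 439 against 641 and 566, a log2 difference of 0.77 ± 0.42. Mrpl30 had 434 and 283 against 577 and 612, a log2 difference of 0.76 ± 0.42. For these 4 genes both libraries labelled Ythdf1 KO stood above both WT libraries, and the limma-trend adjusted p ranged from 0.759 to 0.765.

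Genes of the same class stood at the other end. Mrpl16, near the site where the peptide bond is made, had 379.8 and 406 normalised counts in WT against 127 and 262, a log2 difference of −1.10 ± 0.58. The WT libraries agreed closely there and those labelled Ythdf1 KO differed from each other by 1.04 on the log2 scale. Mrpl14, at the interface between the subunits, had 698 and 517 against 389.7 and 359.8, a log2 difference of −0.68 ± 0.40. Mrpl19, also at that interface, had 606 and 719 against 288 and 549, a log2 difference of −0.73 ± 0.45. Mrpl9 had 1143 and 825 against 718 and 681, a log2 difference of −0.47 ± 0.32. All 4 stood below both WT libraries and had a limma-trend adjusted p of 0.759 to 0.809.

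Among the mitochondria-specific proteins of the large subunit, Mrpl37 had 459 and 586 normalised counts in WT against 666 and 991, a log2 difference of 0.65 ± 0.38. Mrpl53 had 523 and 167 against 478 and 891, so that the groups overlapped although the log2 difference was 1.14 ± 0.66. In the table's coordinates Mrpl53 overlaps Ccdc142 on the same strand. Mrpl39 and Mrpl44, which resemble a tRNA synthetase and ribonuclease III, had log2 differences of 0.02 and 0.05. Mrps30 carries the name of the small subunit but belongs to the large one, and had 461 and 958 against 622 and 516, a log2 difference of −0.23 ± 0.45.

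In the small subunit, which binds the mRNA and checks codon against anticodon, the smallest p belonged to Mrps6. Mrps6, a protein of the platform, had 578 and 347 normalised counts in WT 1 and WT 2 against 745 and 945 in Ythdf1 KO 1 and Ythdf1 KO 2, a log2 difference of 0.90 ± 0.40 (SE, n = 2 per group). The gene shares its locus with Slc5a3 on the same strand, and reads may be counted for both. Mrps7, in the head near the exit of the mRNA, had 645 and 1033 against 542 and 335, a log2 difference of −0.94 ± 0.44. Mrps33, also in the head, had 159 and 254 against 94.0 and 86.0, a log2 difference of −1.15 ± 0.74. None of these 3 overlapped between the groups, and their limma-trend adjusted p lay between 0.759 and 0.795.

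Genes at the decoding site overlapped between the groups. Mrps12, the counterpart of the bacterial protein in which streptomycin resistance mutations arise, had 422 and 702 normalised counts against 747 and 309, with a log2 difference of −0.18 ± 0.55. Mrps5 had 334 and 678 against 605 and 404, with a log2 difference of 0.05 ± 0.50. In both genes WT 1 and Ythdf1 KO 2 held the low values and WT 2 and Ythdf1 KO 1 the high ones.

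The bacterial protein S18 has 3 mitochondrial relatives, which sit in different places. Mrps18a belongs to the large subunit and Mrps18b and Mrps18c to the small one. Their log2 differences were −0.50 ± 0.61, −0.13 ± 0.48 and −0.37 ± 0.92, the last being the largest standard error of all 77 genes. Mrps18c also had the lowest read counts, with 209.7 and 72.7 normalised counts in WT 1 and WT 2 against 96.0 and 94.3 under the Ythdf1 KO label. Here WT 1 alone stood high. Mrps36 had 327 and 294 in WT against 351 and 331, both above WT, with a log2 difference of 0.14 ± 0.46.

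Read counts are not corrected for transcript length, so the following orders the genes by reads and not by abundance. After Mrpl12, the members with the most reads were Mrpl4, with 1118 and 1418.5 normalised counts in WT against 1264 and 1640.3, Mrps25, with 1065 and 1041 against 1369.9 and 943.8, Mrps24, with 979 and 1092 against 810.5 and 1376, and Mrpl43. All of these overlapped between the groups, with log2 differences of 0.19 ± 0.28, 0.11 ± 0.30, 0.03 ± 0.34 and 0.79 ± 0.49. Besides Mrps18c and Mrps33, those with the fewest reads were Mrpl1, with 195 and 134 against 98.9 and 237, Mrpl32, with 90.2 and 269.6 against 269 and 122, and Mrpl33, with 108 and 159 against 114 and 369. Their log2 differences were −0.08 ± 0.76, 0.21 ± 0.83 and 0.65 ± 0.81, and the libraries of each label lay as far apart as those of different labels.

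**Figure D3:**
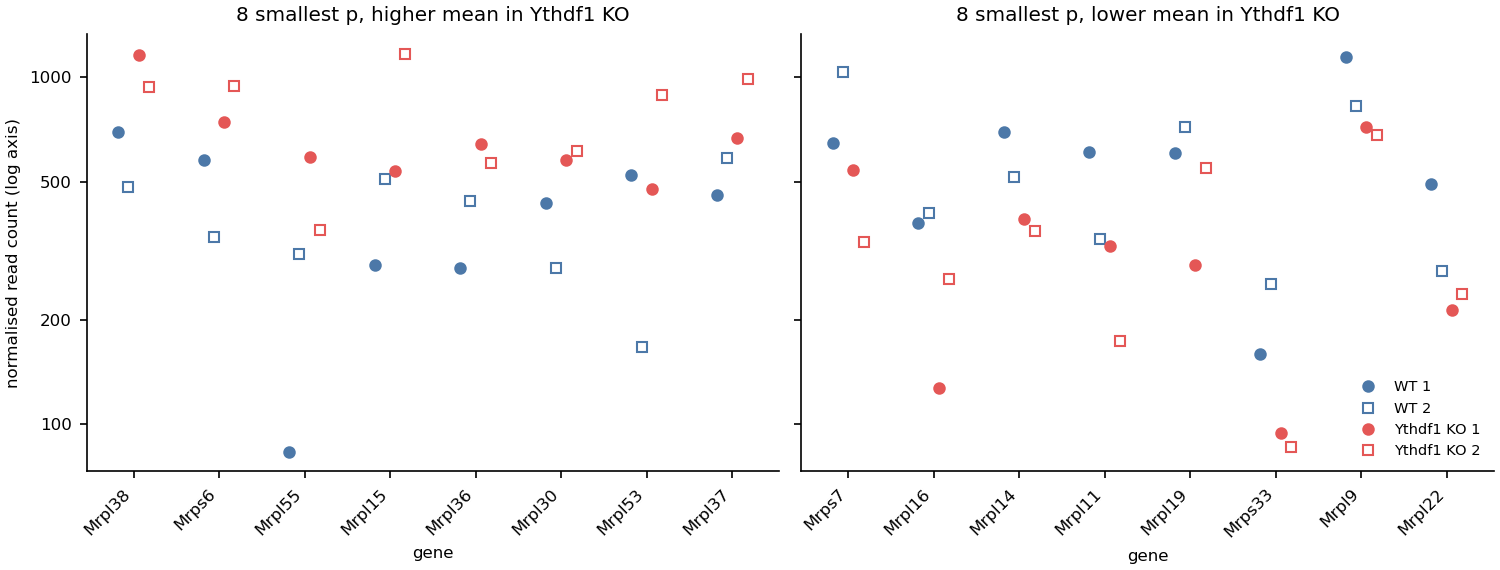
Normalised read count on a log axis (y axis) in each of the 4 libraries (blue WT, red Ythdf1 KO, filled circle library 1, open square library 2) for the 8 members with the smallest limma-trend p in each direction (x axis). The left panel holds the genes with the higher mean under the Ythdf1 KO label and the right panel those with the lower mean; Mrpl53 alone among the 16 overlaps between the groups, and the WT libraries of Mrpl55 (83.4 and 309) lie farther apart than most.

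The spread between libraries of one label was as large as the differences between labels. Over the 77 genes, the median absolute log2 difference was 0.53 between WT 1 and WT 2, 0.41 between Ythdf1 KO 1 and Ythdf1 KO 2, and 0.32 between the group means. A difference of more than 2-fold was seen within WT in 12 genes and within the other label in 13. One example was Mrpl3, with 435 and 1239.8 normalised counts in WT 1 and WT 2 against 459.5 and 451, where WT 2 alone stood high. The members were covered by 72 to 3065 reads per library (median 520.0), and counting error alone gave a median SD of 0.095 for a WT pair and 0.087 for a Ythdf1 KO pair on the log2 scale. The pairs lay beyond 1.96 such SDs in 64 of 77 genes within WT and in 61 within the other label, a spread that counting error alone does not cover. The difference between group means exceeded both differences within groups in 15 members (19.5%), against 22.9% of all genes tested. The 95% confidence interval of the log2 difference included 0 in 76 of 77 members and lay wholly within 1 of 0 in 13, so that for the other 64 members a 2-fold difference lies within the interval.

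**Figure D4:**
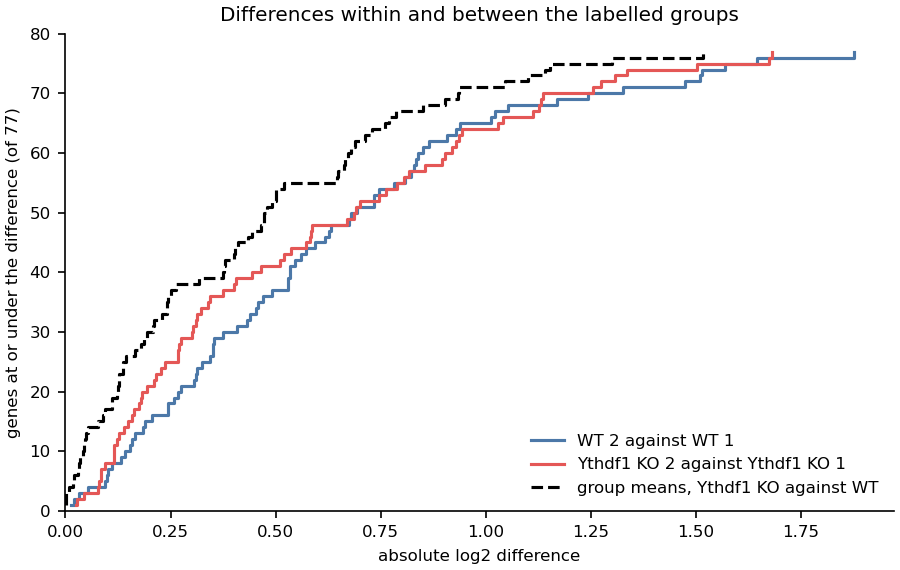
Number of the 77 genes (y axis) whose absolute log2 difference is at or below the value on the x axis, for WT 2 against WT 1 (blue), Ythdf1 KO 2 against Ythdf1 KO 1 (red) and the group means (black dashed). The group means differ less (median 0.32) than the libraries within a label do (medians 0.53 and 0.41); a mean over 2 libraries varies less than a single library, so the curves do not share one scale of error.

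The authors' deposited table gives its own fold change, p-value and q-value per transcript. In the authors' deposited table, 0 of the 77 chosen transcripts had a q under 0.05, against 4.47% over the chosen transcripts of all genes (1.24% higher and 3.23% lower under the Ythdf1 KO label). The lowest was 0.113 for Mrpl38. At a p under 0.05 the authors' deposited table held 3 members that were higher and 2 that were lower, against 17.6% of all genes. Over all 171 listed transcripts of the members, 4 (2.34%) had a q under 0.05, against 3.67% of all 87526 listed transcripts, and all 4 were higher under the Ythdf1 KO label, which held for 1.13% of all.

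These 4 transcripts belonged to Mrpl55 and Mrpl15. For Mrpl55, 2 predicted transcripts, XM_006533972.2 and XM_006533976.3, had the same values, 83.4, 83.8, 445 and 361 normalised counts in WT 1, WT 2, Ythdf1 KO 1 and Ythdf1 KO 2, and a q of 0.00149 in the authors' deposited table. The curated NM_026035.3 had 83.4, 84.8, 373 and 269.7, with a q of 0.0309 there. The WT libraries agreed closely on these isoforms, whereas on the chosen transcript, the one with the highest mean count, WT 2 had 309. A read that fits several isoforms may have been counted for each of them, so these are not taken as separate measurements. For Mrpl15, the noncoding NR_033530.1 had 0, 17.2, 67.9 and 502 in the same order, with a q of 0.0238 in that table, and most of its reads came from Ythdf1 KO 2 alone. Among the 94 other listed isoforms of all members, 19 in 15 genes had a KO to WT ratio on the opposite side of 1 from the gene's chosen transcript.

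Genes that work with the mitochondrial ribosome were read from further lists, and none of their genes passed the limma-trend test. Their counts above and below both WT libraries stand against 14.3% and 21.4% of all genes tested. The list of ribosomal proteins that go by other symbols held 5 genes and left out Mrpl58. All 5 were tested, with a median log2 difference of 0.03 and 1 above and 0 below both WT libraries. Gadd45gip1, a large subunit protein, had 415 and 693 normalised counts in WT against 938 and 931, a log2 difference of 0.80 ± 0.37. Dap3, a GTP-binding protein of the small subunit, had 996 and 639 against 904 and 1301, a log2 difference of 0.44 ± 0.36. The differences of Aurkaip1 (0.03), Ptcd3 (−0.12) and Chchd1 (−0.26 ± 1.30) were within their standard errors.

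Of the mitochondrial translation factors, 16 were tested, with a median of 0.008, 3 above (18.8%) and 2 below (12.5%). Mrrf, which recycles ribosomes after termination, had 23.7 and 133 normalised counts in WT against 348 and 427, a log2 difference of 2.75 ± 0.97 with a limma-trend adjusted p of 0.759. Pdf, the peptide deformylase, had 256 and 476 against 570.1 and 687, a log2 difference of 0.84 ± 0.46. Mtfmt adds to the initiator methionine the formyl group that Pdf later removes. It had 410.3 and 434 against 163 and 249.8, a log2 difference of −1.06 ± 0.51. Mtrf1, a release factor, had 95.8 and 159 against 2.91 and 139.8, where Ythdf1 KO 1 alone stood low.

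Of the assembly factors and ribosomal RNA modifying enzymes, 31 were tested, with a median of −0.076, 5 above (16.1%) and 8 below (25.8%) both WT libraries, shares near those of all genes. Eral1, a chaperone of the small subunit ribosomal RNA, had 362 and 778 normalised counts in WT against 182 and 144. The groups did not overlap. Its log2 difference was −1.71 ± 0.58 with a limma-trend adjusted p of 0.759, and its q in the authors' deposited table was 0.0215. Nsun4, a ribosomal RNA methyltransferase, had 472 and 269.6 against 207 and 29.0, a log2 difference of −2.18 ± 1.04. The RNA helicase Ddx28 had 100.3 and 19.2 against 257 and 184, a log2 difference of 2.27 ± 1.10, and the GTPase Gtpbp10 had 122 and 156 against 259.8 and 333, a log2 difference of 1.09 ± 0.59.

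Of the genes for mitochondrial transcription and RNA handling, 25 were listed and 24 tested, with a median of 0.18, 8 above (33.3%) and 4 below (16.7%). A q under 0.05 in the authors' deposited table was given for 3 of them, and all of these were higher under the Ythdf1 KO label; over the chosen transcripts of all genes that table gave 4.47%, and 1.24% higher. Pnpt1, the polynucleotide phosphorylase, had 395 and 328 normalised counts in WT against 805 and 821, a log2 difference of 1.17 ± 0.36 and a q there of 0.00874. Slirp, which stabilises mitochondrial mRNAs, had 20.3 and 23.2 against 275 and 148, a log2 difference of 3.16 ± 1.18 and a q there of 0.0126. Fastkd1, which regulates single mitochondrial mRNAs, had 452 and 355 against 961 and 755, a log2 difference of 1.09 ± 0.37 and a q there of 0.0281. With limma-trend all 3 had an adjusted p of 0.759. Polg2, the accessory subunit of the mitochondrial DNA polymerase, had 862 and 754 against 587 and 419, a log2 difference of −0.70 ± 0.36, and 1110008L16Rik had 654 and 187 against 103 and 180.3, a log2 difference of −1.35 ± 0.78.

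Of 14 transcription factors and coactivators known for mitochondrial genes, 0 stood above and 2 (14.3%) below both WT libraries, with a median of −0.079. The 2 were Atf5, with 443 and 486 normalised counts in WT against 363 and 127, and Yy1, with 1944 and 1962 against 1608 and 1749. Their log2 differences were −1.11 ± 0.63 and −0.22 ± 0.21. Myc had 630.1 and 904 against 878 and 1328, and Ppargc1a 2107 and 1906 against 2778 and 2004, so that both overlapped between the groups.

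Promoter sequences from RefSeq (build GRCm38.p6, 250 bases before to 50 after the annotated start) were matched for 68 of the 77 genes and for 19326 genes in all. Letters were searched on both strands. The NRF1 core, GCGCATGC, was present in 8 member promoters (11.8%) against 3.61% of all promoters of this length. The ETS motif CCGGAAG, which GABP binds, was present in 25 (36.8%) against 11.8%, and the YY1 motif AAGATGGC in 12 (17.6%) against 3.34%. At least 1 of these motifs was found in 37 of 68 member promoters (54.4%) against 17.3% of all. In related groups the ETS motif was in 39.3% of cytosolic ribosomal protein promoters and 23.8% of respiratory chain promoters, the NRF1 core in 5.36% and 15.9%, and the YY1 motif in 7.14% and 14.3%. The SP1 motif GGGCGG was in 48.5% of member promoters against 46.7% of all, and CCAAT in 39.7% against 37.2%. TATAAA was found in 5.88% against 11.01%. The full NRF1 palindrome, which holds the core on both strands, was found in 4.41% against 1.29%. Median GC content was 58.0% for the members and 56.7% for all. These shares were not tested, and a match describes letters only.

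Examples of each motif before a member's start are given here in lower case with the match in capitals, 5′ to 3′ on the gene's strand. They show the motifs in their setting at 6 members, and Mrpl9 carries the palindrome.
Mrpl9: gcgcagctGCGCATGCGCggggtcct
Mrpl10: agctccacGCATGCGCatagcggc
Mrpl3: gaaacggaCCGGAAGtggcccgg
Mrps22: ctctcgagCCGGAAGttgc
Mrpl52: gatgtcggCTTCCGGttttcccg
Mrpl36: gaccttacGCCATCTTtcttcctg

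In that order these stretches lie at chr3:94443300-94443325 (+), chr11:97041440-97041463 (+), chr9:105053241-105053263 (+), chr9:98601680-98601698 (−), chr14:54426854-54426876 (+) and chr13:73330971-73330994 (+), all before the gene's start. In Mrpl10, 126 bases separate the match from the start, in Mrpl3 12 and in Mrps22 4. Over the members, matches of the ETS motif lay at a median of 19 bases before the start, those of the NRF1 core at 49.5 bases before it and those of the YY1 motif at 15 bases after it. These medians are over 29, 14 and 12 matches, and a promoter can give several. Mrpl32 gave 4 of the 14 NRF1 core matches, and in a palindrome the core was counted on each strand. Some matches lay farther away, such as an ETS match of Mrpl18 with 233 bases between it and the start. The difference between the labelled groups was also read by motif, with no test: the median log2 difference was −0.13 with and 0.05 without the ETS motif, 0.11 with and 0.03 without the NRF1 core, and 0.15 with and 0.009 without the YY1 motif, all well inside the members' quartiles.

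Many of these genes also start back to back with another gene. A gene on the opposite strand began within 1000 bases upstream for 30 of 77 members (39.0%), at a median distance of 96 bases, against 15.2% of all genes in the table, 32.0% of the respiratory chain genes and 21.1% of the cytosolic ribosomal protein genes. These shares were not tested. Mrpl46 and Mrps11, one from each subunit, are each other's partner on chromosome 7. Other partners with a mitochondrial role are Peo1, the DNA helicase Twinkle (with Mrpl43), Ndufb5, a subunit of complex I (with Mrpl47), Sars2, the mitochondrial seryl-tRNA synthetase (with Mrps12), and Ptcd2, an RNA-binding protein (with Mrps27). Fau, which encodes a cytosolic ribosomal protein, is the partner of Mrpl49.

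Partners shared a direction in some pairs and not in others. Of 28 distinct pairs in which both genes had a tested difference, 17 had the same sign. Mrps11 had 184 and 72.7 normalised counts in WT against 207 and 396, a log2 difference of 1.30 ± 0.76, while its partner Mrpl46 had 219.8 and 386 against 178 and 392, a log2 difference of −0.14 ± 0.63. Mrpl43 had 1027 and 509 against 874 and 1784, and Peo1 had 738 and 623 against 782 and 1441, so that both were highest in Ythdf1 KO 2. The genes of this pair overlap on opposite strands in the table's coordinates, and since no use of strand is stated, reads of one may be counted for the other. Of all members, 14 (18.2%) overlapped a gene on the opposite strand, against 25.7% of all genes in the table. On the same strand 4 (5.19%) overlapped a gene, against 6.18%.

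**Figure D5:**
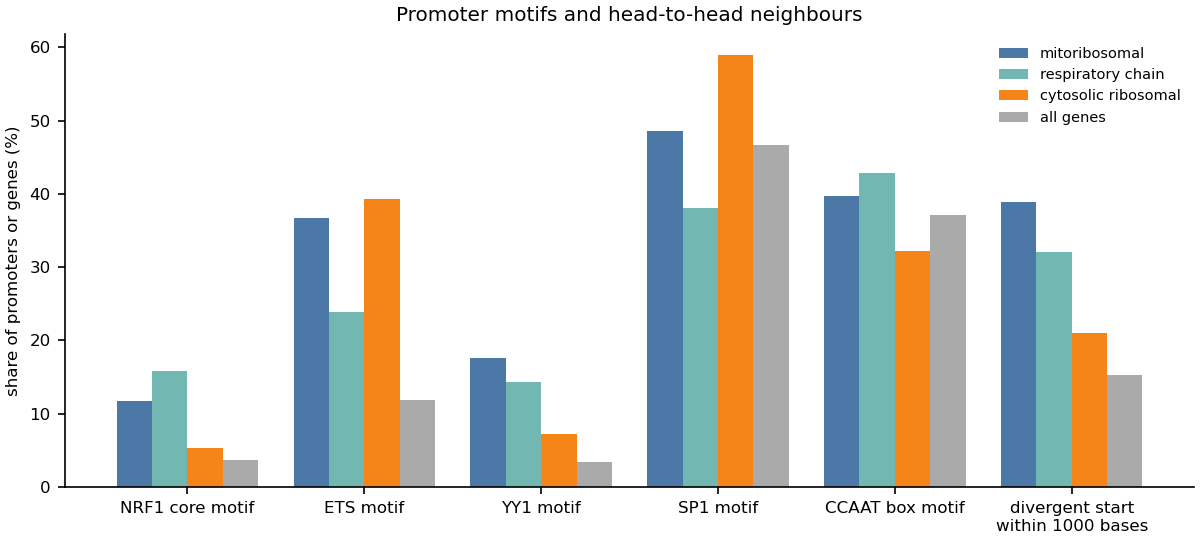
Share of promoters that hold each motif, and share of genes with a divergent start within 1000 bases (y axis, %), for the mitochondrial ribosomal, respiratory chain and cytosolic ribosomal protein genes and for all genes (colours); motif shares are over promoters of 300 bases and the last set over genes. The ETS motif is in 36.8% of member promoters and 11.8% of all, while the SP1 motif is in 48.5% and 46.7%.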

How the data were processed

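The deposited table lists RefSeq transcripts on build mm10 with 1 value per input library. The submitters' processing notes name Bowtie2 2.2.5 and SAMtools 1.3.1 beside CASAVA 1.8, and also HOMER 4.10, deepTools 3.3.0 and MACS2 2.1.0, with no role given. The read counter and its use of strand are not given in the sources. The deposited signal is normalised: in every library 100% of values divided by the smallest nonzero one came out whole to within 0.001, so values are read counts over a size factor and the smallest stood for 1 read. It was 1.13, 1.01, 0.969 and 0.827 in WT 1, WT 2, Ythdf1 KO 1 and Ythdf1 KO 2. No transcript with a mean under 11.6 was listed. The log2 fold changes, p-values and q-values per transcript are also the authors', per the file headers.

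The transcript with the highest mean over the 4 libraries was kept for each gene. Genes that reached a value of 1 in 2 or more libraries were fitted on log2(value + 1) by genotype label alone, using limma-trend (robust, limma 3.58.1, R 4.3.3), and p-values were adjusted over all genes by Benjamini-Hochberg. Differences on this scale are between means of logs: the added 1 shrinks those of low genes, while unequal libraries of a label can make them larger than the log2 of the ratio of means. Alternatives included edgeR 4.0.16 and DESeq2 1.42.0 on the recovered reads, quantile and TMM scaling, other pseudocounts and filters, summed transcripts, a replicate block, and leaving out each library. Transcript lengths were not used here, so levels are not compared between genes.

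The members, lists and motifs were chosen with earlier results of these data known. Genes named in the text were, by rule, the 8 members with the smallest p in each direction, the members with the highest and lowest read counts, those of the functional groups, and in each further list the 2 smallest p in each direction and any gene with an authors' q under 0.05. Mrpl3 and the promoter and neighbour examples were chosen after their values were seen. Mrpl58 is listed under an older symbol and is not counted. Same-numbered libraries did not deviate together (correlation −0.008 over the genes tested), so the replicate numbers were not taken as pairs.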

Additional observations from a re-analysis of the deposited data

How the results depend on the processing

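With limma-trend 0 of all genes had an adjusted p under 0.05 (1257 at an unadjusted p under 0.05), whereas limma without a trend called 632 and DESeq2 on recovered reads 1431 (6.49% of genes tested), and edgeR called 0 (1038 unadjusted). Leaving out 1 library gave 0 to 36 calls. Among the 77 members the count was 0 with limma-trend and under all 16 alternatives, with a lowest adjusted p of 0.0881 (Mrpl38, DESeq2); in the 4 alternatives that leave out 1 library, its label has 1 library, assumed to vary like the other label, so a count of 0 there says little. With the replicate block 0 members were called, the lowest adjusted p was 0.649, and 1760 genes had an unadjusted p under 0.05; the numbers do not pair the libraries. At an unadjusted p under 0.05 DESeq2 gave 6 members, against 17.1% of all genes. Leaving out 1 library moved the median log2 difference of all members between −0.078 and 0.14, that of the large subunit between −0.064 (without Ythdf1 KO 2) and 0.23 (without WT 2; 0.20 without Ythdf1 KO 1) and that of the small subunit between −0.17 (without Ythdf1 KO 2) and 0.026. The 16 members named for their small p kept their direction under all alternatives. They were picked from these same data and, except for Mrpl53, did not overlap between the groups. Leaving out 1 library could therefore not reverse them, and their kept direction says little. Scaling moved the median over all genes from −0.087 to 0.0007 (quantile) and −0.07 (TMM), and the members' median to 0.06 and 0.05. Outside the members, Chchd1 changed sign with quantile scaling (0.10), edgeR (0.037) and DESeq2 (0.030), and leaving out 1 library moved it between −1.78 and 1.26, Mtrf1 between −4.99 and 0.18, and Ptcd3 between −0.29 and 0.046; the cause was not tested. Eral1 (−1.79), Fastkd1 (1.10), Pnpt1 (1.18), Slirp (3.3) and Ythdf1 (0.92) passed with DESeq2 only. With 2 libraries per label, most intervals of single members include a 2-fold difference.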
